A study of Mus musculus with 11 samples.

Results

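The interferon regulatory factors (IRFs) are a family of transcription factors that bind interferon response sequences in DNA. The 8 genes described here, *Irf1*, *Irf2*, *Irf3*, *Irf4*, *Irf5*, *Irf7*, *Irf8* and *Irf9*, were taken by name from the deposited gene tables, where they are 8 of 26283 genes. Each of the 8 had 1 row and passed the filter on low counts, which left 19232 genes to test.

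The 11 tumors were mammary tumors of C57BL/6 mice, 18 weeks of age, that carried MMTV-PyMT and were profiled by bulk RNA sequencing. In these mice the mouse mammary tumor virus promoter drives expression of the polyomavirus middle T antigen, and tumors form in the mammary gland. All animals also carried MMTV-Cre. The 6 PyMT *Pcbp1*–/– tumors came from animals with *Pcbp1*(fl/fl) alleles, and the 5 PyMT *Pcbp1*+/+ tumors came from animals with *Pcbp1*(wt/wt) alleles. *Pcbp1* encodes a poly(C)-binding protein, and the Cre system is described as acting in mammary epithelial cells. Whether other cells of the tumors keep the gene was not tested. The libraries were poly(A)-enriched and stranded, and the labels give a single batch. The labels number the tumors within a group and do not say that each came from a separate mouse, so that p-values measure the spread between these tumors. Estimated counts summed to between 11239931 and 14092192 per tumor in PyMT *Pcbp1*–/– tumors and to between 10543189 and 11411776 in PyMT *Pcbp1*+/+ tumors. Levels are given as deposited CPM, the counts of a gene scaled to a common total for each tumor.

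IRF3 is made at all times and is activated by the kinase TBK1 after nucleic acid sensors such as cGAS (acting through STING), RIG-I or MDA5 are engaged, and it then turns on type I interferon genes. Secreted interferon acts through JAK1 and TYK2 to assemble ISGF3, a complex that holds STAT2 and IRF9, which binds interferon-stimulated response elements and turns on many genes, *Irf7* among them. IRF7 in turn drives more interferon, while IRF1 and IRF2 act on overlapping sites as activator and mostly repressor, and IRF4, IRF5 and IRF8 work mainly in immune cells.

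In the 5 PyMT *Pcbp1*+/+ tumors, *Pcbp1* itself was at 268, 271, 225, 220 and 259 CPM. Its lowest, median and highest levels across the 6 PyMT *Pcbp1*–/– tumors were 15.4, 20.9 and 33.6 CPM. The targeted gene was therefore low in each tumor labelled as knockout and high in each tumor labelled as wild type. The epithelial markers of the labelled tissue were present in each tumor, with *Epcam* between 178 and 363 CPM, *Krt8* between 161 and 330 CPM and *Krt18* between 122 and 262 CPM.

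PyMT *Pcbp1*+/+ replicate 5 stood apart from its group. *Irf9* was at 39.5 CPM there and at 73.6 CPM or more in the other 4 tumors of the group, and *Irf7* was at 40.0 CPM against 114 CPM or more. Its *Pcbp1* level of 259 CPM and its total of 11198153 counts lay within the range of its group, and its summed macrophage and basal epithelial markers were the lowest of the 11 tumors, at 322 and 45.2 CPM. The log2 fold changes of the members, the ratios between them and the correlations below are given with and without this tumor. Whether the marker levels have a part in its low IRF values was not tested.

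Of the 8 members, 2 had lower and 0 had higher levels in PyMT *Pcbp1*–/– tumors, against PyMT *Pcbp1*+/+ tumors, at an adjusted p under 0.05 (edgeR's quasi-likelihood test with Benjamini-Hochberg adjustment over all genes tested). Over all genes tested, the same calls took 1.66% in the lower and 0.608% in the higher direction. In number these were 319 and 117 genes, and with 1 tumor left out 144 to 389 were lower and 41 to 187 higher. The members called lower were *Irf7* and *Irf9*, which were also the 2 called by DESeq2 and by limma-voom, and at an unadjusted p under 0.05 there were 3 lower and 0 higher members. All 8 members had a negative log2 fold change in the fit of all tumors, with a median of -0.29 against -0.00 over all genes tested, and the signs of *Irf1*, *Irf5* and *Irf8* turned positive when single tumors were left out. For 1 member, *Irf7*, every PyMT *Pcbp1*–/– tumor lay below every PyMT *Pcbp1*+/+ tumor, which was the case for 2.02% of all genes tested. In bulk tissue, fewer cells of a type and less RNA per cell cannot be told apart.

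**Figure D1:**
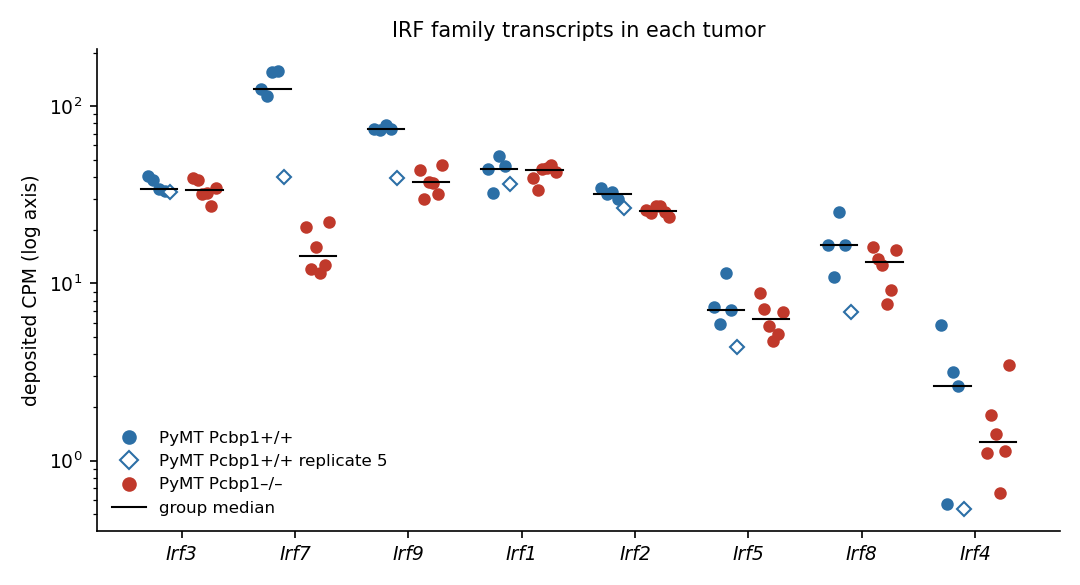
Deposited CPM on a log axis for each of the 8 members, with 1 point per tumor, blue for the 5 PyMT *Pcbp1*+/+ and red for the 6 PyMT *Pcbp1*–/– tumors, an open diamond for PyMT *Pcbp1*+/+ replicate 5 and a line at each group median. The groups are separate for *Irf7*, where the PyMT *Pcbp1*–/– points end at 22.3 CPM and the lowest PyMT *Pcbp1*+/+ point is at 40.0 CPM, and they overlap for the other 7 members.

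*Irf3*, the constitutive member that TBK1 activates, lies on the plus strand of chromosome 7 of GRCm38 from 44997648 to 45002848 (ENSMUSG00000003184.15). The levels in PyMT *Pcbp1*+/+ replicates 1 to 5 were 40.5, 38.4, 33.9, 33.2 and 32.9 CPM. Lowest, median and highest values in PyMT *Pcbp1*–/– tumors were 27.4, 33.6 and 39.3 CPM. The groups overlapped, and the spread was narrow in both. The difference was -0.07 on the log2 scale (95% interval -0.28 to 0.14, adjusted p = 0.727 from edgeR), so that a fall of more than 0.28 on the log2 scale lay outside the interval. Without PyMT *Pcbp1*+/+ replicate 5 it was -0.08 (adjusted p = 0.708 from edgeR). The start of *Irf3* shares 1065 bases with *Bcl2l12* on the opposite strand, which had between 30.2 and 56.3 counts per tumor against 359 to 512 for *Irf3*.

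*Irf7*, the interferon-inducible member that amplifies the response, lies on the minus strand of chromosome 7 from 141262706 to 141266481 (ENSMUSG00000025498.15). In order of replicate, the PyMT *Pcbp1*+/+ tumors had 125, 114, 155, 158 and 40.0 CPM. Across PyMT *Pcbp1*–/– tumors the lowest, median and highest values were 11.4, 14.4 and 22.3 CPM. All 6 PyMT *Pcbp1*–/– tumors were below the lowest PyMT *Pcbp1*+/+ tumor, and the distance was smallest to replicate 5. The PyMT *Pcbp1*–/– mean was 15.9 ± 4.70 CPM (SD, n = 6), and the PyMT *Pcbp1*+/+ mean was 118 ± 47.6 CPM (SD, n = 5). By edgeR the log2 fold change was -2.89 (standard error 0.31, 95% interval -3.57 to -2.21, adjusted p = 0.00194 from edgeR), a 7.42-fold lower level. Without PyMT *Pcbp1*+/+ replicate 5 the PyMT *Pcbp1*+/+ mean was 138 ± 21.7 CPM (SD, n = 4) and the log2 fold change -3.10 (adjusted p = 8e-05 from edgeR). *Irf7* shares 45 bases at its 3′ end with *Phrf1* on the opposite strand, and it had between 156 and 1768 counts per tumor.

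*Irf9*, the subunit that gives ISGF3 most of its DNA contact, lies on the plus strand of chromosome 14 from 55603571 to 55610030 (ENSMUSG00000002325.15). Replicates 1 to 5 of the PyMT *Pcbp1*+/+ group had 74.7, 73.6, 78.3, 74.3 and 39.5 CPM. Its PyMT *Pcbp1*–/– values had a minimum, median and maximum of 30.0, 37.1 and 46.4 CPM. The first 4 PyMT *Pcbp1*+/+ tumors were nearly equal and above all PyMT *Pcbp1*–/– tumors, whereas replicate 5 lay inside the PyMT *Pcbp1*–/– range. The PyMT *Pcbp1*–/– mean was 37.7 ± 6.35 CPM (SD, n = 6), and the PyMT *Pcbp1*+/+ mean was 68.1 ± 16.1 CPM (SD, n = 5). By edgeR the log2 fold change was -0.85 (standard error 0.17, 95% interval -1.21 to -0.48, adjusted p = 0.0254 from edgeR), a 1.80-fold lower level. Without PyMT *Pcbp1*+/+ replicate 5 the PyMT *Pcbp1*+/+ mean was 75.2 ± 2.12 CPM (SD, n = 4), and the log2 fold change was -0.98 (adjusted p = 0.00269 from edgeR). The call was lost when any 1 of 6 other tumors was left out. The adjusted p was 0.0657, 0.0624 and 0.0638 without PyMT *Pcbp1*–/– replicates 3, 4 and 5 and 0.0576, 0.0689 and 0.0681 without PyMT *Pcbp1*+/+ replicates 1, 3 and 4 (edgeR), while the log2 fold change lay between -0.98 and -0.75 over all 11 such fits. The end of *Rnf31*, on the same strand, shares 123 bases with the start of *Irf9*, and the *Irf9* count was not whole in 6 of the 11 tumors, so that its level is less certain.

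*Irf1*, an activator induced by interferon gamma, lies on the plus strand of chromosome 11 from 53770014 to 53778374 (ENSMUSG00000018899.16). The 5 PyMT *Pcbp1*+/+ tumors, in order of replicate, were at 44.0, 32.4, 52.3, 45.9 and 36.3 CPM. The PyMT *Pcbp1*–/– minimum, median and maximum were 33.8, 43.6 and 46.3 CPM. The PyMT *Pcbp1*–/– values lay inside the PyMT *Pcbp1*+/+ range. The log2 fold change was -0.01 (95% interval -0.32 to 0.29, adjusted p = 0.971 from edgeR), and it was -0.05 without PyMT *Pcbp1*+/+ replicate 5 (adjusted p = 0.897 from edgeR). It turned to 0.11 without PyMT *Pcbp1*+/+ replicate 3, the tumor with the highest *Irf1*, and it was 0.01 and 0.05 without PyMT *Pcbp1*–/– replicates 1 and 2. *Gm17334* on the opposite strand shares 907 bases with *Irf1*, and the *Irf1* count was not whole in 8 of the 11 tumors, which makes this level less certain.

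*Irf2*, which binds the same sites as IRF1 and mostly represses them, lies on the plus strand of chromosome 8 from 46739732 to 46847458 (ENSMUSG00000031627.9). The levels in PyMT *Pcbp1*+/+ replicates 1 to 5 were 34.7, 32.1, 32.7, 30.1 and 26.7 CPM. Across PyMT *Pcbp1*–/– tumors the lowest, median and highest values were 23.6, 25.6 and 27.4 CPM. The groups met only around PyMT *Pcbp1*+/+ replicate 5, which 4 of the 6 PyMT *Pcbp1*–/– tumors were below. The log2 fold change was -0.28 (95% interval -0.46 to -0.10, unadjusted p = 0.00559, adjusted p = 0.104 from edgeR), which did not pass the threshold, and it was -0.31 without PyMT *Pcbp1*+/+ replicate 5 (adjusted p = 0.0876 from edgeR). After scaling by TMM factors, which correct for differences in library composition, the groups no longer overlapped, with at most 27.8 CPM in PyMT *Pcbp1*–/– and at least 28.4 CPM in PyMT *Pcbp1*+/+ tumors.

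*Irf5*, which acts below Toll-like receptors in macrophages and other myeloid cells, lies on the plus strand of chromosome 6 from 29526625 to 29541871 (ENSMUSG00000029771.12). In order of replicate, the PyMT *Pcbp1*+/+ tumors had 7.41, 5.88, 11.4, 7.04 and 4.37 CPM. The PyMT *Pcbp1*–/– minimum, median and maximum were 4.76, 6.34 and 8.82 CPM. The groups overlapped, with both the highest and the lowest value in PyMT *Pcbp1*+/+ tumors. The difference was -0.18 on the log2 scale (95% interval -0.70 to 0.34, adjusted p = 0.727 from edgeR). It was -0.30 without PyMT *Pcbp1*+/+ replicate 5 (adjusted p = 0.497 from edgeR) and 0.10 without PyMT *Pcbp1*+/+ replicate 3 (adjusted p = 0.846 from edgeR). Its last 1045 bases overlap *Tnpo3* on the opposite strand, which had between 496 and 733 counts per tumor against 49 to 130 for *Irf5*, and the *Irf5* count was not whole in 9 of the 11 tumors, so that its level is less certain.

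*Irf8*, which directs the development of dendritic cells and monocytes, lies on the plus strand of chromosome 8 from 120736358 to 120756694 (ENSMUSG00000041515.10). Replicates 1 to 5 of the PyMT *Pcbp1*+/+ group had 16.5, 10.8, 25.2, 16.4 and 6.88 CPM. Lowest, median and highest values in PyMT *Pcbp1*–/– tumors were 7.68, 13.2 and 16.0 CPM. The PyMT *Pcbp1*–/– values lay inside the PyMT *Pcbp1*+/+ range. The log2 fold change was -0.29 (95% interval -0.94 to 0.35, adjusted p = 0.631 from edgeR). It was -0.47 without PyMT *Pcbp1*+/+ replicate 5 (adjusted p = 0.343 from edgeR) and 0.02 without PyMT *Pcbp1*+/+ replicate 3 (adjusted p = 0.980 from edgeR). The whole of *Irf8* lies inside AC114005.5, a gene model on the same strand from 119910841 to 124345722, which had between 697 and 1424 counts per tumor against 77 to 288 for *Irf8*. Although the *Irf8* count was whole in each tumor, how reads were split between them is not known, and this level is less certain.

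*Irf4*, which acts in lymphocytes and in some dendritic cells, lies on the plus strand of chromosome 13 from 30749226 to 30766976 (ENSMUSG00000021356.10). It was the least abundant member, with between 6 and 64 counts per tumor. The 5 PyMT *Pcbp1*+/+ tumors, in order of replicate, were at 5.85, 0.569, 3.15, 2.64 and 0.536 CPM. Its PyMT *Pcbp1*–/– values had a minimum, median and maximum of 0.658, 1.28 and 3.48 CPM. The PyMT *Pcbp1*+/+ tumors split into 3 with more and 2 with less than the PyMT *Pcbp1*–/– median. The estimated log2 fold change was -0.65 (95% interval -1.89 to 0.60, adjusted p = 0.580 from edgeR), and without PyMT *Pcbp1*+/+ replicate 5 it was -0.90 (adjusted p = 0.373 from edgeR). Over the 11 fits that left out 1 tumor it ran from -1.05 without PyMT *Pcbp1*–/– replicate 6 to -0.14 without PyMT *Pcbp1*+/+ replicate 1. A difference of the size of *Irf9* lies inside this interval.

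**Figure D2:**
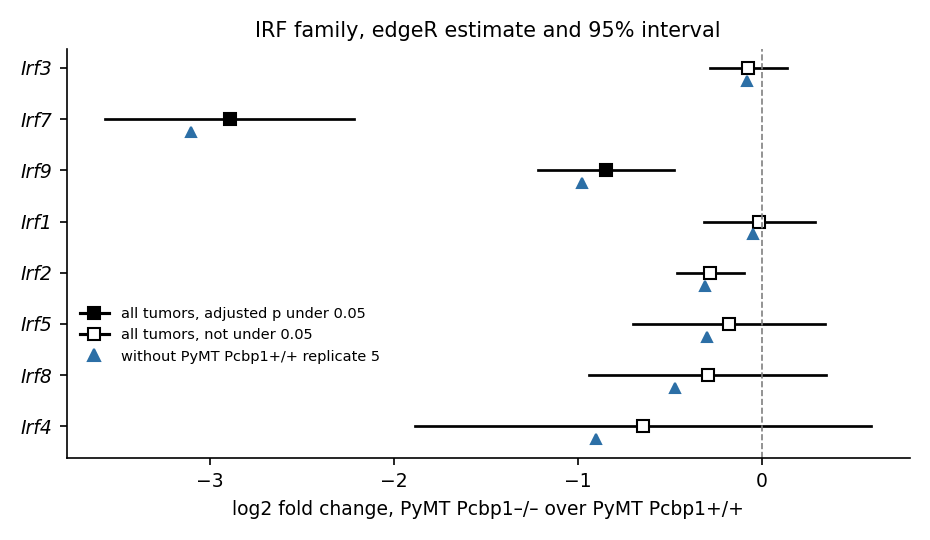
The log2 fold change of each member, PyMT *Pcbp1*–/– over PyMT *Pcbp1*+/+ tumors, from edgeR, as squares with 95% intervals for all 11 tumors (filled where the adjusted p is under 0.05) and as blue triangles without PyMT *Pcbp1*+/+ replicate 5. *Irf7* at -2.89 and *Irf9* at -0.85 are the filled squares, and the intervals of the others except *Irf2* include 0.

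A difference between members was tested as a log2 ratio of CPM within a tumor, with a pseudocount of 0.5 CPM. The ratio of *Irf7* to *Irf3* was 1.62, 1.56, 2.18, 2.23 and 0.28 in PyMT *Pcbp1*+/+ replicates 1 to 5. The PyMT *Pcbp1*–/– tumors ranged from -1.63 to -0.63 with a median of -1.03. *Irf7* exceeded *Irf3* in each PyMT *Pcbp1*+/+ tumor and was below it in each PyMT *Pcbp1*–/– tumor. The difference of the group means was -2.69 (p = 0.00216 in an exact two-sided permutation test, which is the smallest that 462 arrangements can give, or 0.00325 after adjustment over 3 ratios, and lower in 6 of 6 tumors). Without PyMT *Pcbp1*+/+ replicate 5 it was -3.01 (exact permutation p = 0.00476).

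The ratio of *Irf7* to *Irf9* was 0.74, 0.63, 0.98, 1.08 and 0.02 in PyMT *Pcbp1*+/+ replicates 1 to 5, and it lay between -1.65 and -1.04 in PyMT *Pcbp1*–/– tumors. The groups did not overlap, so that *Irf7* differed by more than *Irf9* did. The difference of the means was -1.94 (exact permutation p = 0.00216, or 0.00325 after adjustment over 3 ratios, and lower in 6 of 6 tumors), and it was -2.11 without PyMT *Pcbp1*+/+ replicate 5 (exact permutation p = 0.00476). The ratio of *Irf1* to *Irf2* was 0.34, 0.02, 0.67, 0.60 and 0.43 in PyMT *Pcbp1*+/+ replicates 1 to 5, and it lay between 0.42 and 0.86 in PyMT *Pcbp1*–/– tumors around a median of 0.70. Its groups overlapped, with a difference of 0.27 (exact permutation p = 0.0519, and the same after adjustment over 3 ratios) that did not pass the threshold, and it was 0.28 without PyMT *Pcbp1*+/+ replicate 5 (exact permutation p = 0.0857).

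Levels of different genes were compared as CPM per kb of the canonical transcript. In PyMT *Pcbp1*+/+ tumors *Irf7* came first with 49.4 ± 19.9 CPM per kb (SD, n = 5), followed by *Irf9* with 24.5 ± 5.78, *Irf1* with 19.8 ± 3.70, *Irf3* with 17.3 ± 1.67 and *Irf2* with 12.4 ± 1.21. *Irf5* with 3.30 ± 1.2, *Irf8* with 2.99 ± 1.37 and *Irf4* with 0.535 ± 0.460 CPM per kb were at the bottom. The neighbors *Irf9* and *Irf1*, *Irf1* and *Irf3*, and *Irf5* and *Irf8* differed by less than the larger SD of each pair, and the range of *Irf7* reached into that of *Irf9* through replicate 5.

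In PyMT *Pcbp1*–/– tumors the order on the same scale was *Irf1* with 19.6 ± 2.19 CPM per kb (SD, n = 6), *Irf3* with 16.4 ± 2.14, *Irf9* with 13.5 ± 2.28, *Irf2* with 10.3 ± 0.572 and *Irf7* with 6.63 ± 1.96. *Irf5* followed with 2.94 ± 0.689, *Irf8* with 2.46 ± 0.665 and *Irf4* with 0.336 ± 0.209 CPM per kb. *Irf7* thus moved from rank 1 to rank 5, below *Irf2* with no overlap of their ranges, while *Irf5* and *Irf8* differed by less than the larger SD. With lengths of all exons together, *Irf1* and *Irf3* exchanged places in both groups, *Irf5* and *Irf8* likewise, and *Irf7* stood above *Irf2* in PyMT *Pcbp1*–/– tumors at rank 4. As a share of the summed CPM per kb of the 8 members, *Irf7* took 37.1%, 37.9%, 41.0%, 44.1% and 21.5% in PyMT *Pcbp1*+/+ replicates 1 to 5. The share in PyMT *Pcbp1*–/– tumors ranged from 6.85% to 11.8% with a median of 8.60%. The summed level of the other 7 members was 65.6 ± 4.05 CPM per kb (SD, n = 6) in PyMT *Pcbp1*–/– and 80.7 ± 12.3 CPM per kb (SD, n = 5) in PyMT *Pcbp1*+/+ tumors, with PyMT *Pcbp1*+/+ replicate 5 at 61.1 CPM per kb.

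**Figure D3:**
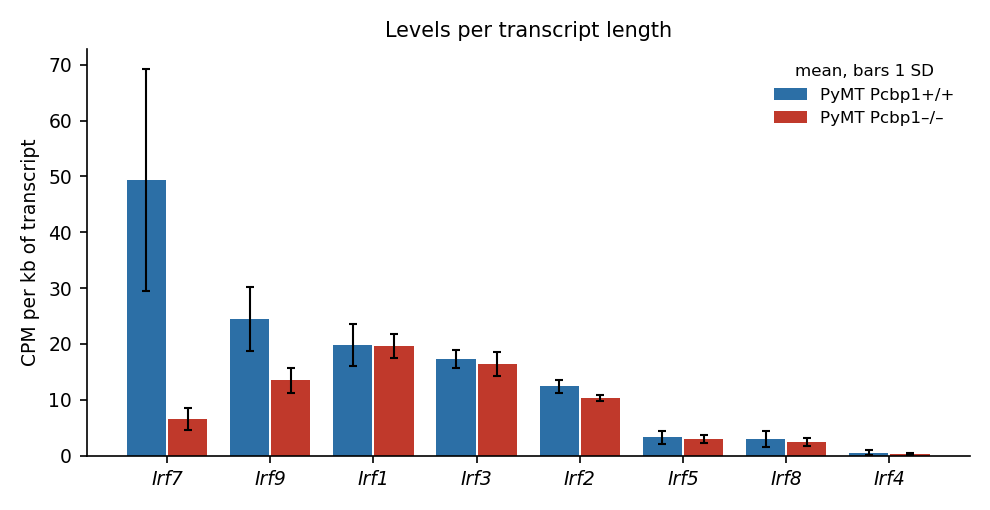
Mean CPM per kb of canonical transcript with SD for each member, in the order of the 5 PyMT *Pcbp1*+/+ tumors (blue) beside the 6 PyMT *Pcbp1*–/– tumors (red). *Irf7* has the tallest bar in PyMT *Pcbp1*+/+ tumors at 49.4 CPM per kb and ranks 5 in PyMT *Pcbp1*–/– tumors at 6.63 CPM per kb.

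The members also differed in how they varied within a group. Over 28 pairs of members, Pearson's r of log2(CPM + 0.5) after subtracting each group's mean ranged from -0.508 (*Irf1* and *Irf3*) to 0.956 (*Irf5* and *Irf8*), with a median of 0.427 (n = 11 tumors). With PyMT *Pcbp1*+/+ replicate 5 left out the median was 0.256 and the range -0.650 to 0.937 (n = 10 tumors). *Irf7* had r = 0.950 with *Irf9*, 0.853 with *Irf8* and 0.760 with *Irf5*, and *Irf4* and *Irf8* had r = 0.768. These were 0.8285, 0.742, 0.626 and 0.668 without that tumor, while r of *Irf2* with *Irf7* went from 0.451 to -0.449 and with *Irf9* from 0.549 to -0.155. The points of each pair share their library.

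Among 13666 other protein-coding genes, those most like each member were named by the same r within groups (n = 11 tumors). They were *Trim34a* (r = 0.971), *Oas1g* (0.967) and *Trim30a* (0.965) for *Irf7*, and *Ifit1* (0.975), *Oasl2* (0.973) and *Pdlim2* (0.973) for *Irf9*. For *Irf1* they were *Ikzf3* (0.981), *Sh2d2a* (0.959) and *H2-T22* (0.944), and for *Irf2* they were *Lsm6* (0.918), *Prpf4b* (0.890) and *Zc3h13* (0.884). *Irf3* was most like *Rsrc2* (0.950), *Sugp2* (0.949) and *Glrx2* (0.940). *Irf5* was most like *Parvb* (0.966), *Cxcl9* (0.964) and *Irf8* (0.956), and *Irf8* was most like 9930111J21Rik2 (0.968), *Il16* (0.967) and *Nfam1* (0.967). *Irf4* was most like *Sema3c* (0.972), *Gfra2* (0.962) and *Cacnb4* (0.960). In the 10 tumors other than PyMT *Pcbp1*+/+ replicate 5, r of these pairs lay between 0.816 and 0.984, and the search was not repeated. Those 10 tumors were among the 11 that chose the pairs, so that a high r in them is built in. The r that a search of so many genes finds by chance was not measured. Of the genes like *Irf7* and *Irf9*, *Trim34a*, *Oas1g*, *Ifit1* and *Oasl2* were themselves lower in PyMT *Pcbp1*–/– tumors (adjusted p of 0.0160, 0.00480, 0.00320 and 0.00343 from edgeR), whereas *Trim30a* and *Pdlim2* were not called, with log2 differences of -1.78 and -0.16 (adjusted p of 0.0581 and 0.793 from edgeR). *Sugp2*, which is like *Irf3*, was also lower (-0.725, adjusted p = 0.00496 from edgeR).

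For the counts in the lists below, the shares over all genes tested were 1.66% lower and 0.608% higher. Upstream of the family, 3 of 13 sensors and adaptors were lower and 0 were higher. They were *Zbp1*, a sensor of left-handed nucleic acids, with a log2 difference of -1.49 (adjusted p = 0.00504 from edgeR), *Ddx58*, which encodes RIG-I, with -0.98 (adjusted p = 0.00618) and *Ifih1*, which encodes MDA5, with -0.78 (adjusted p = 0.0307). The calls of *Zbp1* and *Ddx58* were kept in each of the 11 fits that left out 1 tumor, and that of *Ifih1* in 4 of them. Neither gene of the cGAS and STING route was called. *Mb21d1*, which encodes cGAS, differed by 0.13 on the log2 scale (95% interval -0.26 to 0.52, adjusted p = 0.743 from edgeR) and *Tmem173*, which encodes STING, by -0.29 (95% interval -0.76 to 0.18, adjusted p = 0.499 from edgeR). With 1 tumor left out *Mb21d1* lay between 0.06 and 0.32 and *Tmem173* between -0.44 and -0.15.

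Of 12 kinases and scaffolds, 1 was lower and 1 was higher. *Ikbkb*, a kinase that phosphorylates IRF5, differed by -0.34 on the log2 scale (adjusted p = 0.0325 from edgeR), called in 3 of 11 fits without 1 tumor. *Tbkbp1*, an adaptor of TBK1, had 0.62 (adjusted p = 0.0181 from edgeR), called in 8 of 11 such fits, and all PyMT *Pcbp1*–/– values from 10.9 to 15.1 CPM were above all PyMT *Pcbp1*+/+ values from 8.44 to 9.29 CPM. In this way 1 of the 12 genes lay above and 2 lay below, *Ikbkb* among them. Among the 19232 genes tested, 244 lay above and 389 below. The kinases of IRF3 themselves were not called, with *Tbk1* at -0.17 (95% interval -0.46 to 0.13, adjusted p = 0.540 from edgeR) and *Ikbke* at -0.28 (95% interval -0.60 to 0.03, adjusted p = 0.315 from edgeR). With 1 tumor left out *Tbk1* lay between -0.25 and -0.11 and *Ikbke* between -0.36 and -0.17.

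Of 11 tested partners of the IRFs, out of 12 listed, 1 was lower and 0 were higher, with 2 lower at an unadjusted p under 0.05, by DESeq2 and without PyMT *Pcbp1*+/+ replicate 5, and 2 lower and 1 higher by limma-voom. *Stat2*, the ISGF3 subunit that binds IRF9, was at 51.8, 57.0, 83.8, 55.3 and 25.4 CPM across PyMT *Pcbp1*+/+ replicates 1 to 5. Its PyMT *Pcbp1*–/– values had a minimum, median and maximum of 16.3, 19.4 and 27.0 CPM. The groups met only at PyMT *Pcbp1*+/+ replicate 5, which 5 of 6 PyMT *Pcbp1*–/– tumors were below. It differed by -1.42 on the log2 scale (adjusted p = 0.0112 from edgeR), and -1.59 without that tumor (adjusted p = 0.00131 from edgeR). *Spi1*, which encodes the DNA-binding partner PU.1 of IRF4 and IRF8, had 0.16 (95% interval -0.39 to 0.71, adjusted p = 0.772 from edgeR). With 1 tumor left out *Spi1* lay between 0.02 and 0.40, and it was 0.02 without PyMT *Pcbp1*+/+ replicate 5.

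Of 9 inhibitors of the pathway, 3 were lower and 0 were higher. *Usp18*, itself interferon-inducible and a brake on the type I receptor, differed by -1.63 on the log2 scale (adjusted p = 0.0309 from edgeR, called in 4 of 11 fits without 1 tumor). *Rbck1*, linked to the turnover of IRF3, had -0.60 (adjusted p = 0.0114 from edgeR, called in each of the 11 fits). *Otud5*, a deubiquitinase of TRAF3, had -0.30 (adjusted p = 0.0445 from edgeR, called in 1 of the 11 fits). Of 18 interferon ligands, receptors and receptor kinases, 10 were tested, 1 was lower and 0 were higher. This was *Ifnlr1*, a chain of the interferon lambda receptor, with -0.58 (adjusted p = 0.0391 from edgeR, called in 4 of 11 fits without 1 tumor). *Ifnb1* was not analysed here, and the type I receptor chains *Ifnar1* and *Ifnar2* had log2 fold changes of 0.09 (95% interval -0.18 to 0.35) and -0.02 (95% interval -0.36 to 0.32).

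All 20 listed targets of ISGF3 and of IRF3 and IRF7 were lower and 0 were higher, with a median log2 fold change of -2.02 and a range from -3.05 to -0.82. This list was written with earlier results of these data known, so that its count describes the list and is not independent evidence. The 6 with the largest differences were *Rsad2*, *Oas2*, *Ifit3*, *Ifit1*, *Isg15* and *Oas3*, antiviral effectors with log2 fold changes of -3.05, -2.92, -2.81, -2.80, -2.62 and -2.60 (adjusted p of 0.00337, 0.00415, 0.00687, 0.00320, 0.00343 and 0.00561 from edgeR). Each of these 6 was called in all 11 fits that left out 1 tumor, as were 15 of the 20 targets, and single fits called between 15 and 20 of them. In 12 of the 20 genes every PyMT *Pcbp1*–/– tumor was below every PyMT *Pcbp1*+/+ tumor, which was the case for 2.02% of all genes tested. *Isg15*, a ubiquitin-like modifier, was at 31.5, 38.2, 38.8, 28.4 and 10.2 CPM across PyMT *Pcbp1*+/+ replicates 1 to 5, and the PyMT *Pcbp1*–/– tumors lay between 2.25 and 7.04 CPM.

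Taking log2(CPM + 0.5) minus its mean over the PyMT *Pcbp1*+/+ tumors, the median of these 20 genes was 0.24, -0.03, 0.66, 0.28 and -1.17 in PyMT *Pcbp1*+/+ replicates 1 to 5. The PyMT *Pcbp1*–/– tumors lay between -2.46 and -1.49. PyMT *Pcbp1*+/+ replicate 5 was thus nearer to the PyMT *Pcbp1*–/– tumors than to the rest of its group, though above all of them. The corresponding value of *Irf7* was -1.41 in that tumor and between -3.17 and -2.24 in PyMT *Pcbp1*–/– tumors, and that of *Irf9* was -0.74 and between -1.13 and -0.51.

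**Figure D4:**
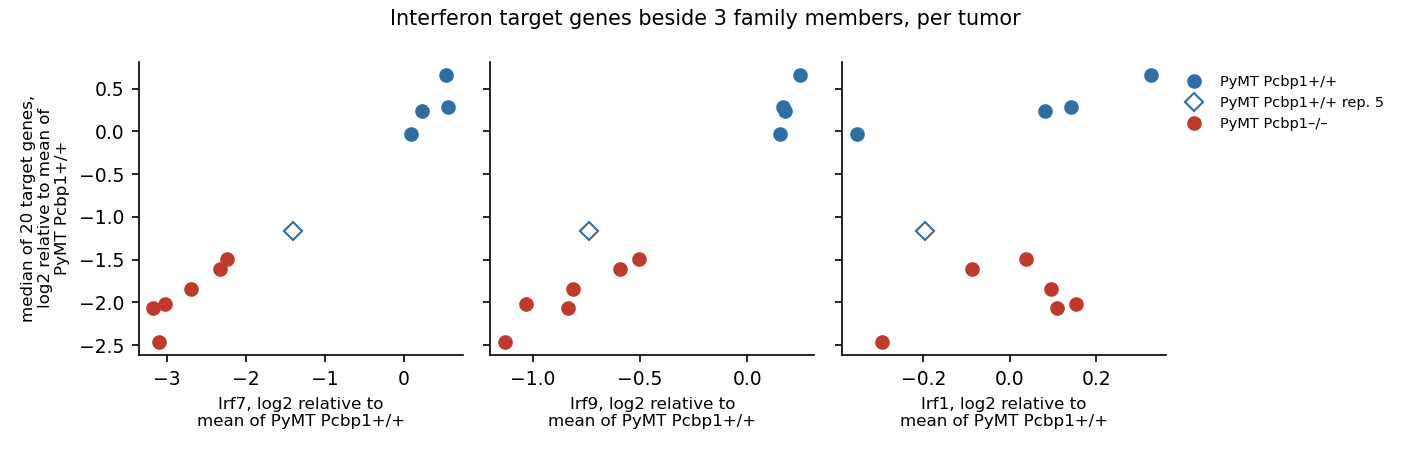
For each tumor, the median of the 20 interferon target genes (vertical axis) beside *Irf7*, *Irf9* and *Irf1* (horizontal axes), all as log2(CPM + 0.5) relative to the mean of the PyMT *Pcbp1*+/+ tumors, blue for PyMT *Pcbp1*+/+, red for PyMT *Pcbp1*–/– and an open diamond for PyMT *Pcbp1*+/+ replicate 5. The tumors with low *Irf7* have low targets, down to -2.46, whereas the PyMT *Pcbp1*–/– tumors lie inside the range of the PyMT *Pcbp1*+/+ tumors for *Irf1*.

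Of 18 listed IRF1 targets, 4 were lower and 0 were higher, with a median log2 fold change of -0.67. At an unadjusted p under 0.05 there were 12 lower and 1 higher, DESeq2 called 6 lower and limma-voom 9 lower, and the fits that left out 1 tumor called between 1 and 8 lower. *Gbp3*, a guanylate-binding protein, had -2.04 (adjusted p = 0.0153 from edgeR) and was called in each of 11 fits without 1 tumor. *Cd274*, which encodes PD-L1, had -1.26 (adjusted p = 0.0399), *Tap1*, a peptide transporter of antigen presentation, had -1.06 (adjusted p = 0.0325) and its partner *Tap2* had -0.68 (adjusted p = 0.0325, all from edgeR). The last 3 were called in 2, 2 and 4 of these 11 fits. The fall of these 4 genes stood beside an *Irf1* level that was not called. Of 2 tested IRF2 targets, of 1 tested out of 5 IRF5 targets and of 10 tested out of 12 genes linked to IRF4 and IRF8, 0 were called at an adjusted p under 0.05 by edgeR. At an unadjusted p under 0.05 these lists had 0, 0 and 2 lower and 0 higher genes, DESeq2 called 0 in each, and limma-voom called 2 lower genes in the last.

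The pathway lists were written with earlier results of these data known. Over all pathway lists, 33 of 106 genes tested were lower and 1 was higher, with a median log2 fold change of -0.29, against 319 lower and 117 higher of 19232 genes tested. Without PyMT *Pcbp1*+/+ replicate 5, 36 were lower and 1 was higher, and 32 of the 34 calls were kept. Over all fits that left out 1 tumor, 20 to 32 of the 34 were kept. With the replicate number as a block 15 were kept, all of them targets of ISGF3 and of IRF3 and IRF7. The block also left out PyMT *Pcbp1*–/– replicate 6, which has no partner, and 26 were kept when only that tumor was left out. With the block, *Zbp1*, *Ddx58*, *Stat2*, *Rbck1* and *Gbp3* had adjusted p of 0.0532, 0.0551, 0.0564, 0.0759 and 0.0659 (edgeR).

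Cell type markers were set beside the members, since *Irf4*, *Irf5* and *Irf8* are made mainly in immune cells. All 10 macrophage markers had rows and none was at 0 in any tumor. Their summed level was 676, 497, 534.5, 426.5 and 322 CPM across PyMT *Pcbp1*+/+ replicates 1 to 5 and between 417 and 670 CPM in PyMT *Pcbp1*–/– tumors, with *Lyz2* the most abundant in PyMT *Pcbp1*–/– tumors (mean 193 CPM) and *Cd14* in PyMT *Pcbp1*+/+ tumors (mean 186 CPM). The groups overlapped, and of these 10 markers only *Cd14* was called (log2 fold change -1.19, adjusted p = 0.0481 from edgeR), which was also the only 1 with a negative log2 fold change. The other 9 were positive, with a median of 0.245 over all 10 and the highest in *Lyz2* at 1.02 (adjusted p = 0.0657 from edgeR). Without *Cd14*, the sums were 367, 216, 437, 310 and 198 CPM across PyMT *Pcbp1*+/+ replicates 1 to 5 and lay between 315 and 605 CPM in PyMT *Pcbp1*–/– tumors, so that they still overlapped. The 7 dendritic cell markers summed to 23.1, 16.8, 27.7, 27.0 and 18.04 CPM across PyMT *Pcbp1*+/+ replicates 1 to 5 and to between 12.6 and 28.3 CPM in PyMT *Pcbp1*–/– tumors, with *Zbtb46* the most abundant and *Cd209a* at 0 in some tumors. The 10 markers of T and NK cells summed to 10.2, 4.93, 10.2, 12.0 and 5.54 CPM across PyMT *Pcbp1*+/+ replicates 1 to 5 and to between 4.80 and 11.5 CPM in PyMT *Pcbp1*–/– tumors, with *Cd8a* the most abundant and *Cd3d* and *Ncr1* at 0 in some tumors. Of 7 B and plasma cell markers, 4 had rows, with sums of 2.10, 1.33, 6.40, 3.10 and 1.43 CPM across PyMT *Pcbp1*+/+ replicates 1 to 5 and between 0.8998 and 5.18 CPM in PyMT *Pcbp1*–/– tumors, *Jchain* the most abundant and *Mzb1* at 0 in some tumors. The summed markers of each of these cell types thus overlapped between the groups.

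Within groups, the summed macrophage markers had r between 0.626 (*Irf2*) and 0.755 (*Irf8*) with 7 members and 0.122 with *Irf1* (n = 11 tumors, log2 scale). When PyMT *Pcbp1*+/+ replicate 5, which had the lowest macrophage sum, was left out, r was 0.454 for *Irf7*, 0.451 for *Irf9*, 0.291 for *Irf2* and -0.131 for *Irf1*, and it lay between 0.4515 (*Irf4*) and 0.687 (*Irf3*) for the other 4. The basal epithelial sum had r = 0.803 with *Irf9*, 0.698 with *Irf2* and 0.649 with *Irf7*, or 0.563, 0.392 and 0.1597 without that tumor. *Irf5* and *Irf8* had r = 0.724 and 0.712 with the dendritic cell sum, or 0.7325 and 0.749 without it. With the adipocyte sum, which PyMT *Pcbp1*+/+ replicate 3 led at 57.3 CPM, *Irf5*, *Irf8* and *Irf7* had r = 0.723, 0.611 and 0.373, or 0.872, 0.794 and 0.672 without PyMT *Pcbp1*+/+ replicate 5 and 0.571, 0.431 and 0.2475 without PyMT *Pcbp1*+/+ replicate 3. The marker list with the highest r changed when PyMT *Pcbp1*+/+ replicate 5 was left out for *Irf4*, *Irf5*, *Irf7*, *Irf8* and *Irf9*. *Irf1* went most with the T and NK cell sum, at r = 0.887, or 0.873 without that tumor. The points share their libraries, and the part of these cells in the levels of the members was not tested. Among the other lists, the dividing cell markers, *Mki67* the most abundant, summed to 287, 425, 361, 453 and 386 CPM across PyMT *Pcbp1*+/+ replicates 1 to 5 and to between 379 and 608 CPM in PyMT *Pcbp1*–/– tumors. Only PyMT *Pcbp1*–/– replicate 1 lay inside the PyMT *Pcbp1*+/+ range, and the others were above it. All 5 markers had a positive log2 fold change, with a median of 0.487, and 0 were called at an adjusted p under 0.05 (edgeR). With the members their sum had r between -0.534 (*Irf3*) and -0.0822 (*Irf1*), or between -0.541 and -0.0713 without PyMT *Pcbp1*+/+ replicate 5. It reached 0.0412 for *Irf2* and 0.0626 for *Irf4* without PyMT *Pcbp1*+/+ replicate 1, and 0.0896 for *Irf1* without PyMT *Pcbp1*+/+ replicate 2. The luminal epithelial markers, with *Cdh1* the most abundant, summed to between 1160 and 1655 CPM in PyMT *Pcbp1*+/+ and between 943 and 1594 CPM in PyMT *Pcbp1*–/– tumors.

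The start regions of the members were read from RefSeq windows of GRCm38.p6 that run from 250 bases before to 50 bases after a start, 11 windows for the 8 genes. On both strands, the core of the interferon-stimulated response element was searched as GAAANNGAAA, which 3.44% of all 32851 windows held, and the gamma-activated sequence as TTCNNNGAA, which 8.30% held. The response element core was in the window of 1 member, *Irf2*, as GAAAATGAAA from position -241. The gamma-activated sequence was in windows of *Irf1* (TTCCCCGAA from -90), *Irf2* (TTCCGAGAA from -224) and *Irf8* (TTCTCGGAA from -171 and TTCAGAGAA from -153). Neither was in the windows of *Irf7* and *Irf9*, the members that were lower, nor in those of *Irf3*, *Irf4* and *Irf5*. The first *Irf9* window begins downstream of the *Irf9* start in the gene tables, and the bases before that start were not searched. No match says only that these letters are not in this window. Windows were found for 15 of the 20 ISGF3, IRF3 and IRF7 targets, for 14 of the 18 IRF1 targets and for 11 of the 12 kinases and scaffolds. Of 16 windows of the ISGF3, IRF3 and IRF7 targets, 9 held the response element core, as did 5 of 16 windows of the IRF1 targets and the window of *Stat2*. Among 16 windows of the kinases and scaffolds, 0 held it. A match is a description of the sequence and not a binding site.

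The windows of the members that were lower, of *Irf2* and of *Stat2* are shown for comparison, each 5′ to 3′ on the strand of its gene, in lower case with both motifs in capitals. *Irf7* is chr7:141266375-141266674 (minus strand), *Irf9* the first of its windows at chr14:55603735-55604034 (plus strand), *Irf2* chr8:46739495-46739794 (plus strand) and *Stat2* chr10:128270248-128270547 (plus strand), with the core of *Stat2* on the opposite strand as TTTCAGTTTC from -222.
Irf7: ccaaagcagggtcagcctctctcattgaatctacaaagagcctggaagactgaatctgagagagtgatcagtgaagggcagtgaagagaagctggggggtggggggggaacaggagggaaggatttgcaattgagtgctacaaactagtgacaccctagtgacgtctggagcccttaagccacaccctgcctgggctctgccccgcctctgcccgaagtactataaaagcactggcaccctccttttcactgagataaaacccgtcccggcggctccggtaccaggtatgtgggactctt
Irf9: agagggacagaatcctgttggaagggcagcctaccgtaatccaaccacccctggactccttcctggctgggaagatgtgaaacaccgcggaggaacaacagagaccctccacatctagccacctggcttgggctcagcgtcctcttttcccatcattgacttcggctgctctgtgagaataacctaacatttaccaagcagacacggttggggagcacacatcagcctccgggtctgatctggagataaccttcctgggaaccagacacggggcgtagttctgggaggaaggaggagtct
Irf2: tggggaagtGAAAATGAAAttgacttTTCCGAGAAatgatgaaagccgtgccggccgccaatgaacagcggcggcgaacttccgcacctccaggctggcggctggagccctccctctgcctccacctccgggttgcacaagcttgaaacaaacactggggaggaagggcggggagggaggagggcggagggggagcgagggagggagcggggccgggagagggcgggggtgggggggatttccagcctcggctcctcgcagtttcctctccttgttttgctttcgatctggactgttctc
Stat2: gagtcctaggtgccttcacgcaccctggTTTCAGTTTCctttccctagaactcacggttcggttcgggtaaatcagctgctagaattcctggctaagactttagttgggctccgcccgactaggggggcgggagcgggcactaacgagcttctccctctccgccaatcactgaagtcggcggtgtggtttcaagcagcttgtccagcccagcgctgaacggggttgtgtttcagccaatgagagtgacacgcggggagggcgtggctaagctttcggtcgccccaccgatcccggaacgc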

How the data were processed

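The authors aligned reads to GRCm38 with Bowtie2 and tested genes in Partek Flow, whose versions, annotation and counting method are not given in the sources used here. They deposited estimated counts, not whole in 18.1% to 19.8% of values, and CPM. Estimated counts were rounded. Genes were tested with the quasi-likelihood test of edgeR 4.0.16 in R 4.3.3, after its default filter (19232 genes) and with TMM factors, over 6 PyMT *Pcbp1*–/– and 5 PyMT *Pcbp1*+/+ tumors, with Benjamini-Hochberg adjustment over all genes. Tested on simulated counts for this comparison (19489 genes, 200 changed), it found 84% of 2-fold and 99% of 4-fold changes, and 6.15% of its 195 calls were false. The simulated counts had the same dispersion in every gene and no tumor apart from its group, and the changed genes had means above 1 CPM. These shares describe such counts and may not hold for the measured tumors. A count of 3 was 0.213 to 0.285 CPM. Ratios used log2(CPM + 0.5).

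The deposited stop positions were taken 1 base earlier, since this gave the gene length of GENCODE vM39 (GRCm39) for 10051 genes and the position as deposited for 210. Transcript lengths came from that annotation by Ensembl identifier, with no coordinates from it.

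The members and lists were chosen with earlier results of these data known. Named were the members, *Pcbp1*, in each pathway list up to 6 called genes with the largest difference, 8 fixed genes, 1 of which is not reported here, and the 3 genes most like each member. *Cd14*, *Lyz2*, *Ifnar1* and *Ifnar2* were named after their values were seen. Alternatives were DESeq2 1.42.0, limma-voom with sample quality weights (limma 3.58.1), library size only, no filter, at least 1 CPM in at least 5 tumors, other pseudocounts, the replicate number as a block, each tumor left out, TMM-scaled CPM for the overlap of groups and, added after seeing the data, protein-coding genes only.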

Additional observations from a re-analysis of the deposited data

Results flagged for a closer look

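A sample far from the rest of its group was searched for in 46 groups of values (the members, *Pcbp1*, the 3 ratios and the marker sums, in each genotype). About 2.3 would be found by chance, and 4 were. *Irf9* was at 39.5 CPM in PyMT *Pcbp1*+/+ replicate 5, with 73.6 CPM as the nearest value in its group. The summed B and plasma cell markers were at 5.18 CPM in PyMT *Pcbp1*–/– replicate 6, with 1.68 CPM as the nearest. The summed adipocyte markers were at 57.3 CPM in PyMT *Pcbp1*+/+ replicate 3, with 10.48 CPM as the nearest. The summed markers of dividing cells were at 379 CPM in PyMT *Pcbp1*–/– replicate 1, with 537 CPM as the nearest.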

How the results depend on the processing

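*Irf7* was lower with an adjusted p under 0.05 in all 18 alternatives of the fit, with log2 fold changes from -3.10 to -2.73 and adjusted p up to 0.0199. *Irf9* kept its call in 12 of 18. With each tumor left out in turn, its log2 fold change lay between -0.98 and -0.75, 1 to 2 members were lower, and 20 to 36 genes of the pathway lists were lower and 0 to 1 higher. The signs of 3 members reversed: *Irf1* (range -0.10 to 0.11) to 0.01, 0.05 and 0.11 without PyMT *Pcbp1*–/– replicates 1 and 2 and PyMT *Pcbp1*+/+ replicate 3, and *Irf5* (range -0.30 to 0.10) to 0.10 and *Irf8* (range -0.47 to 0.02) to 0.02 without PyMT *Pcbp1*+/+ replicate 3. The cause was not tested. With limma-voom, *Irf5* had -0.42 and *Irf8* -0.60, and 42 pathway genes were lower and 3 higher, against 37 and 1 with DESeq2. On TMM-scaled CPM, 2 members had all PyMT *Pcbp1*–/– tumors below all PyMT *Pcbp1*+/+ tumors, *Irf7* and *Irf2*, and over all genes 479 did.

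The ratio of *Irf1* to *Irf2* passed the threshold with a pseudocount of 0.1 CPM (0.28, exact permutation p = 0.0476), and with tumors left out it lay between 0.17 and 0.34 (exact permutation p from 0.0238 to 0.124). The ratios of *Irf7* to *Irf3* and to *Irf9* lay between -3.01 and -2.52 and between -2.11 and -1.85 with tumors left out.

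With the replicate number as a block over 5 pairs, *Irf7* had -2.93 (adjusted p = 0.0199) and *Irf9* -0.90 (adjusted p = 0.0477, edgeR), 2 members were lower, and 15 pathway genes were lower and 0 higher. The ratios were -2.78 and -1.99, with the smallest p that 5 pairs allow (exact sign-flip permutation p = 0.0625). The deviations of tumors with the same number had r from -0.163 to 0.304 over 18759 genes. Tumors with different numbers were not compared, so that these values do not tell whether the number pairs the tumors. The block, which also left out PyMT *Pcbp1*–/– replicate 6, called 118 genes lower and 42 higher, against 212 and 69 without that tumor alone. DESeq2 called 700 and 476, limma-voom 1190 and 968, and the fit of all tumors 319 and 117. With 1 tumor left out, edgeR called from 144 (without PyMT *Pcbp1*–/– replicate 3) to 389 lower (without PyMT *Pcbp1*–/– replicate 2). The higher calls ran from 41 (without PyMT *Pcbp1*+/+ replicate 3) to 187 (without PyMT *Pcbp1*+/+ replicate 2). *Irf4* had the fewest counts of the members, 6 to 64 per tumor. Relative to the mean it also had the largest SD, 86% in PyMT *Pcbp1*+/+ and 62.1% in PyMT *Pcbp1*–/– tumors. Whether depth limits its estimate was not tested.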
